A study of Homo sapiens with 3 samples.

Results

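The proteasome subunit genes were taken by name, as the protein-coding genes whose symbol is PSMA, PSMB, PSMC, PSMD, PSME, PSMF or PSMG followed by a number alone. The rule matched 48 symbols, and 47 of them had a row among the 56632 gene IDs of the deposited tables. PSMB3, a subunit of the 20S core, was the 1 symbol without a row. Its expression was not analysed here, and it enters only the counts of promoter windows. Expression was measured by RNA sequencing in the human cell line MCF10Ca1h, an established tumour-forming line that belongs to the MCF10 series of breast epithelial cells. There were 3 libraries, each the only one of its group: cells left without treatment (NT, with no time given), cells exposed for 72 h to a control compound (CON) and cells exposed for 72 h to GSK484 (GSK484). GSK484 inhibits PADI4, an enzyme that converts arginine in proteins to citrulline. All 3 groups were grown in DMEM/F12 with horse serum. The labels give no dose, and they do not say whether a library came from more than 1 culture.

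The libraries held 70555229 (NT), 92980847 (CON) and 77220120 (GSK484) expected counts, the reads that the authors' program assigned to genes. With 1 library per group there is no replicate error, so no difference below was tested. Each carries a 95% interval for counting error alone, and differences that exceed it may still lie within the spread of cultures. All 9 breast epithelial markers examined were measured, while COL3A1, DCN and LUM of fibroblasts and PTPRC and CD3E of leukocytes had a count of 0 in every library. Of the markers of other cell types, 1 of 6 for fibroblasts, 3 of 6 for leukocytes, 1 of 3 matched for endothelium and 0 of 3 for erythroid cells reached 1 CPM (the count scaled to library size) in at least 1 library. The highest leukocyte marker of each library was at 160 (NT), 167 (CON) and 198 TPM (GSK484), a scale explained below. The part of these markers in the results was not tested. In bulk RNA, fewer cells that express a gene and less RNA per cell cannot be told apart.

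The proteasome degrades proteins that carry ubiquitin chains. Its 20S core is a barrel of alpha subunits (PSMA genes), which form the outer rings and the gate, and beta subunits (PSMB genes), which form the inner rings and hold the proteolytic sites. The 19S particle caps the barrel: its ATPases (PSMC genes) unfold the substrate and open the gate, and its other subunits (PSMD genes) bind ubiquitin and remove it. Activators of the PSME family can replace the 19S particle, PSMF1 inhibits the core, and the PSMG chaperones assemble the alpha ring. In many human cells, the transcription factor NFE2L1 raises most subunit genes together when proteasome activity falls, and interferon gamma induces the 3 catalytic subunits of the immunoproteasome, PSMB8, PSMB9 and PSMB10.

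NFE2L1 and its relative NFE2L2 bind the antioxidant response element, so the promoters of the members were searched for its core, TGACNNNGC, and for CCAAT and the ETS core CCGGAA, on both strands. RefSeq promoter windows of 300 bases, 250 before and 50 after the start site, were given on GRCh38.p14, another build than that of the deposited tables, and 42 of the 48 genes matched by symbol, with 51 windows. TGACNNNGC lay in 15 of the 51 windows (29.4%), against 13.3% of all 35116 windows. CCGGAA lay in 22 of 51 (43.1%, against 17.2% of all) and CCAAT in 20 of 51 (39.2%, against 34.6% of all). The stretches below, all upstream of the start site and written in the direction of the gene, belong to members whose values are described next. Capitals mark TGACNNNGC, read on the other strand for PSMB9, and CCGGAA for PSMC6.
PSMD12, chr17:67366709-67366767, minus strand: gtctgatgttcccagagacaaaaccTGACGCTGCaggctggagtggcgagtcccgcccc
PSMB9, chr6:32854019-32854077, plus strand: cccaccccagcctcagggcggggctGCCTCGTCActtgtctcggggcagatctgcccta
PSMG2, chr18:12658674-12658732, plus strand: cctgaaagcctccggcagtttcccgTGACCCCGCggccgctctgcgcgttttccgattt
PSMA4, chr15:78540635-78540693, plus strand: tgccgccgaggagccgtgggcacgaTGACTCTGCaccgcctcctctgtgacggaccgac
PSMC6, chr14:52707068-52707123, plus strand: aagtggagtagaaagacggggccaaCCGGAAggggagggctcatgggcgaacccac
PSMD12, PSMB9, PSMG2 and PSMA4 all hold the element core. Their log2 folds of GSK484 against CON were 0.18, -0.03, -0.31 and 0.04, of which that of PSMB9 was within counting error. After removal of the GC content and length trend described below, they were 0.00, 0.13, -0.20 and 0.06. The 14 measured members with the core had a median log2 fold of -0.041 for this comparison, and the 25 measured members whose windows lack it had -0.045. A match is a description of the letters and no evidence of binding.

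Of the 47 genes, 45 reached 1 CPM in at least 1 library. PSMA8, an alpha subunit of the testis, had a count of 0 in all 3 libraries, which allows up to 0.042 (NT), 0.033 (CON) and 0.039 CPM (GSK484). PSMB11, the beta subunit of the thymus, had a count of 0 in NT, 2 in CON and 1 in GSK484. The members together took 0.819% of the counts in NT (exact binomial interval 0.817 to 0.821), 0.834% in CON (0.832 to 0.835) and 0.831% in GSK484 (0.829 to 0.833). The share was thus lowest in NT and close between CON and GSK484. On the TPM scale, which divides by transcript length and scales to the library total, the order was another one: the members summed to 8789 TPM in NT, 8601 in CON and 8847 in GSK484. The 18 genes whose reads the program divided with other genes or loci are less certain than the 29 with whole counts.

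**Figure D1:**
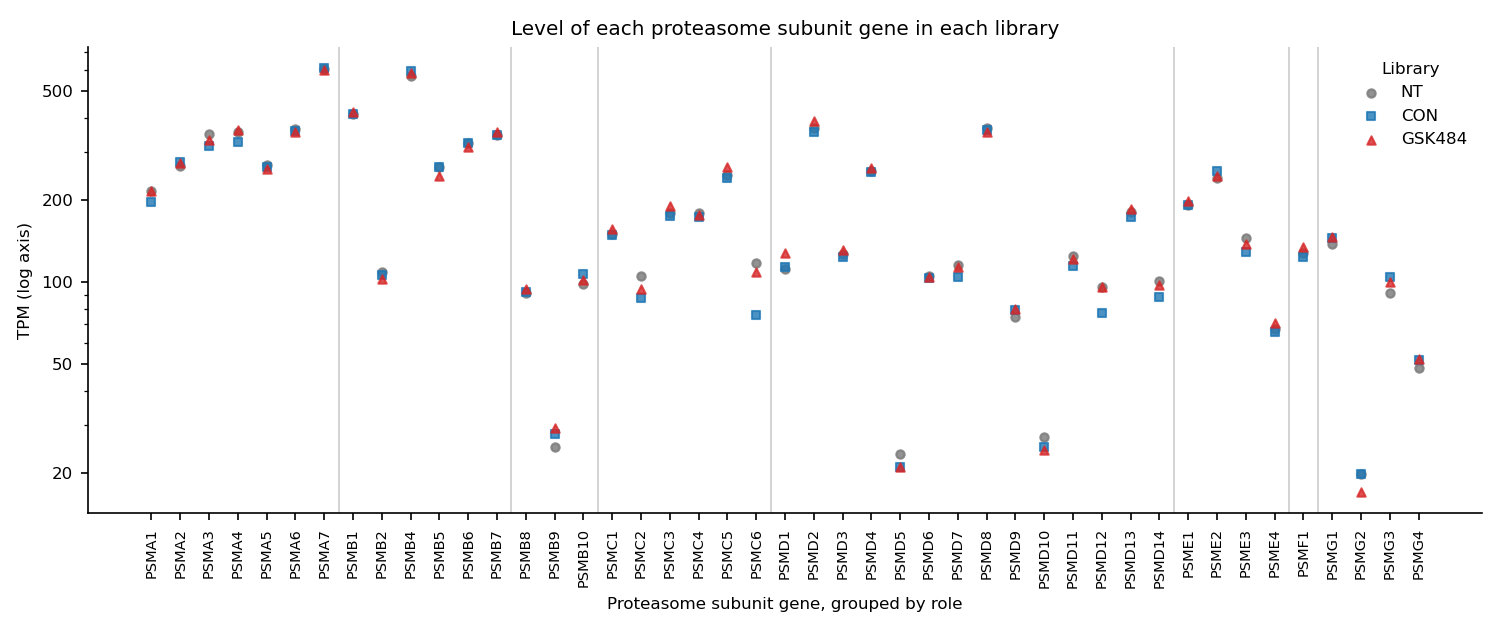
TPM on a log axis (vertical) of the 45 measured proteasome subunit genes (horizontal, grouped by role) in the NT, CON and GSK484 libraries, 1 point per library. PSMA7 and PSMB4 are the highest, at 602 and 569 TPM in NT, and PSMG2, PSMD5, PSMB9 and PSMD10 the lowest, at 19.8 to 27.0.

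Levels between genes are compared in TPM. The alpha genes lay between 216 TPM (PSMA1) and 602 TPM (PSMA7) in NT, and the 6 constitutive beta genes between 109 (PSMB2) and 569 (PSMB4), both of them subunits without a catalytic site. The ATPase genes ranged from 105 (PSMC2) to 246 (PSMC5). Among the other 19S genes, PSMD8 was the highest at 367 and PSMD5 the lowest at 23.4. PSMD5, PSMD9 (74.4) and PSMD10 (27.0) are chaperones that help assemble the base of the 19S particle and leave the finished complex. The 11 other PSMD genes lay between 95.8 and 367 TPM. Of the chaperones of the alpha ring, PSMG2 was at 19.8, PSMG4 at 48.5 and PSMG3 at 91.1 TPM, below all constitutive 20S and 19S subunit genes, and PSMG1 was at 138 TPM, within their range. The SD of log2 TPM in NT was 0.63 over the 13 constitutive 20S genes and 0.63 over the 17 genes of the 19S particle. The same SD was 0.54 for the CCT chaperonin, 0.93 for the COP9 signalosome, whose subunits resemble those of the 19S lid, and 1.26 for the V-ATPase. For the 19S genes the SD was 0.72 in CON and 0.66 in GSK484, and for the 20S genes it was 0.65 in both. In CON it was 0.66 for the CCT chaperonin, 1.003 for the COP9 signalosome and 1.42 for the V-ATPase. In GSK484 the same complexes had 0.54, 1.003 and 1.35. The wider spread in CON than in NT was thus not confined to the 19S genes.

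The comparison of GSK484 against CON is the one matched in time and in having a compound added, and differences are log2 folds of CPM scaled by TMM factors. In the GSK484 library most members were slightly lower: 27 of 45 were lower beyond counting error, 7 were higher and 11 were within it. Over all 13199 genes compared, 27.4% were lower and 26.9% higher beyond counting error. Counting intervals narrow as counts rise, so such shares depend on level as well as on difference. They were not computed for genes in the members' range of CPM, here or in the comparisons and lists below. A difference of at least 1.2-fold beyond counting error, the size used for a call, was reached by 1 member above (PSMC6) and 1 below (PSMG2), against 11.2% of all genes above and 6.25% below. No member reached a fold of 2, which 0.197% of all genes did above and 0.273% below. The median log2 fold was -0.056 over the members and -0.005 over all genes, and the median absolute log2 fold was 0.069 against 0.113 (0.086 for the 7444 genes in the members' range of CPM).

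The direction of that median rests on the scale. With deposited TPM the members' median was 0.045, but the median of all genes also moved, to 0.097, and 31 of 45 members still lay below it, against 33 with the TMM scale. After a smooth trend on transcript GC content and length was removed, the members' median was 0.028 and 29 of 45 lay above the median of all genes. Of the calls over all genes, 64.3% were higher in GSK484, 74.8% with total counts in place of TMM, 81.4% with TPM and 53.5% after the trend was removed. Relative to other genes, the members therefore lay lower on the TMM, total count and TPM scales, and not after the trend was removed. The calls changed with the trend as well: PSMC6 was not called after its removal, PSMG2 was called only with GC content from protein-coding transcripts, and PSMD14 was called lower only with that of the longest transcript. With TPM, PSMC6 and PSMD12 were called higher.

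**Figure D2:**
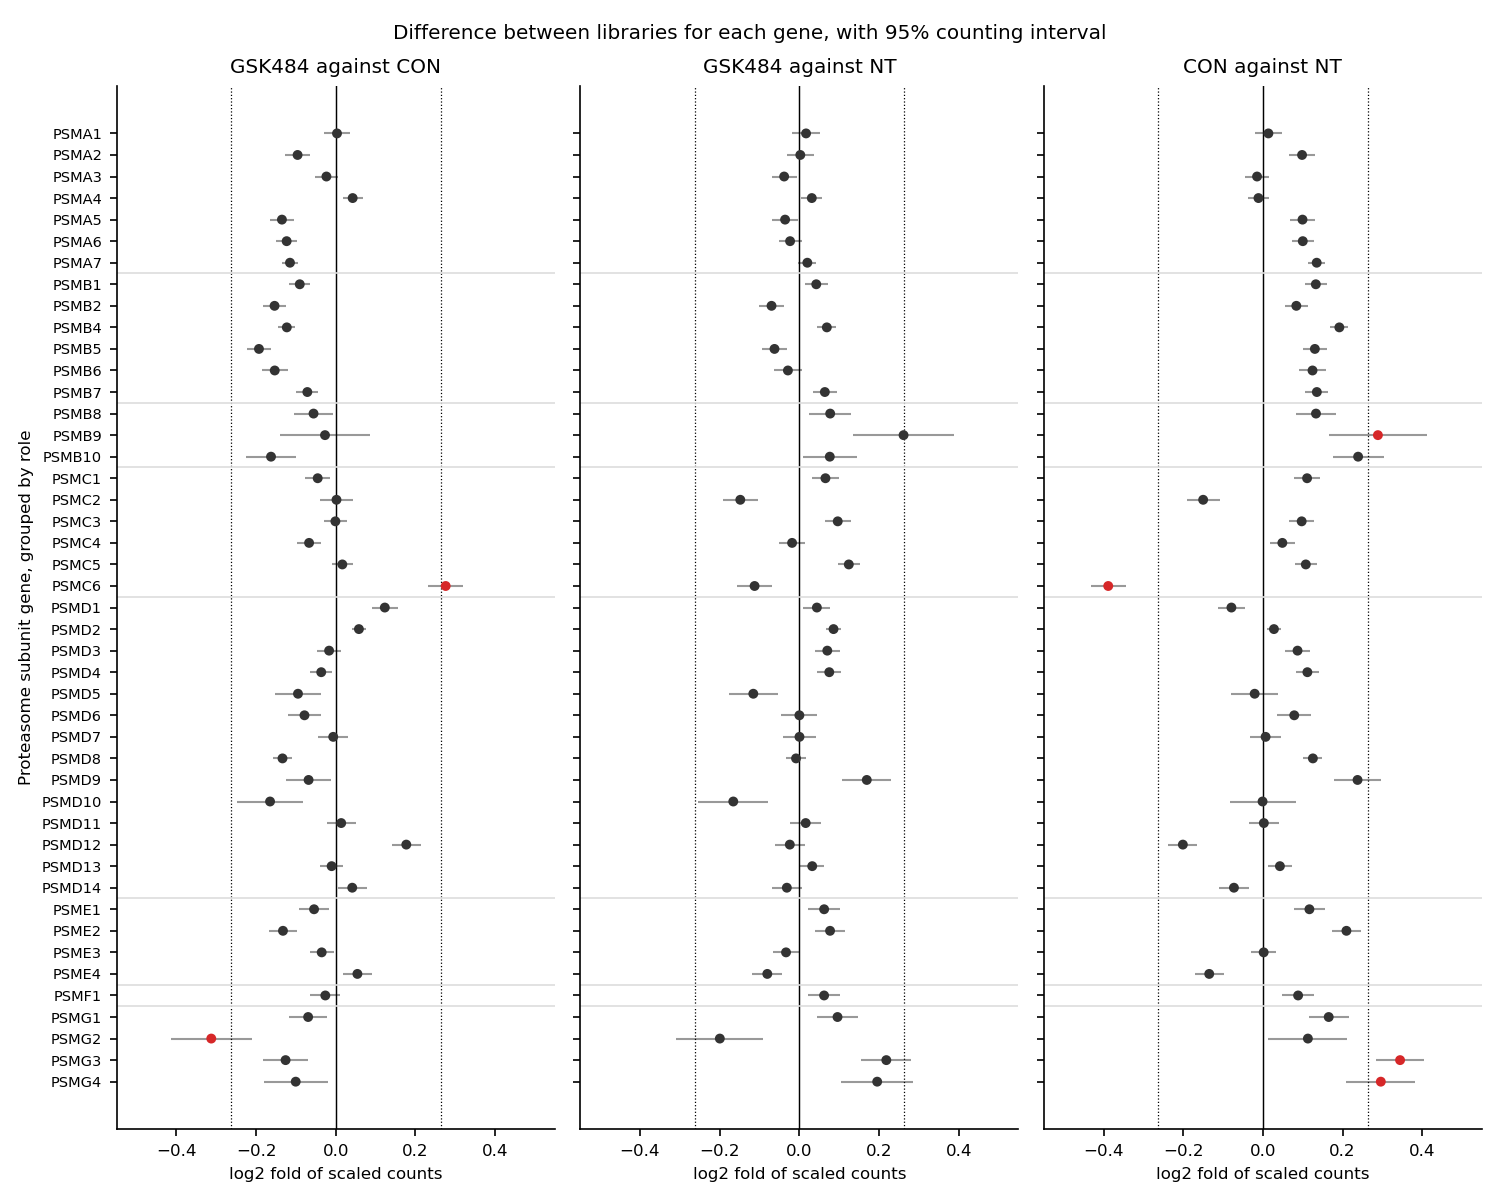
Log2 fold of scaled counts (horizontal) for the 45 measured genes (vertical, grouped by role) in the 3 comparisons, with 95% counting intervals as bars; dotted lines mark a fold of 1.2, and red points are called. PSMC6 and PSMG2 are called in the left panel, no gene in the middle one, and PSMB9, PSMG3, PSMG4 and PSMC6 in the right one.

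PSMC6 (ENSG00000100519), an ATPase of the 19S base, was at 121 (NT), 92.7 (CON) and 112 CPM (GSK484). CON stood apart from both other libraries. The log2 fold was 0.28 for GSK484 against CON (interval 0.23 to 0.32) and -0.39 for CON against NT (-0.43 to -0.34), while GSK484 against NT gave -0.11 (-0.16 to -0.07). After the trend was removed, both called values fell short of a 1.2-fold difference, at 0.18 and -0.18. In TPM the differences were larger, 0.51 and -0.62. The effective length that the program used for PSMC6 was 1319 bases in CON, against 1215 in NT and 1211 in GSK484. Its reads were divided with other loci.

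PSMG2 (ENSG00000128789), which pairs with PSMG1 to build the alpha ring, was at 19.9 (NT), 21.5 (CON) and 17.3 CPM (GSK484), lowest in the inhibitor library. GSK484 against CON gave -0.31 (interval -0.41 to -0.21) and GSK484 against NT -0.20 (-0.31 to -0.09). Its reads were divided as well, and its value with the trend removed was -0.20 with GC content of the longest transcript and -0.34 with that of the protein-coding transcripts. Its partner PSMG1 was at 77.5, 86.9 and 82.8 CPM in the order NT, CON and GSK484, a log2 fold of -0.07 for GSK484 against CON. PSMG3 and PSMG4, which form the other chaperone pair, gave -0.13 and -0.10, so all 4 chaperones were lower in GSK484 than in CON beyond counting error on the TMM scale. With the trend removed only PSMG2 stayed below 0, and PSMG1 (0.07), PSMG3 (0.01) and PSMG4 (0.07) were above it. With TPM, PSMG1 was at 0.01 and PSMG4 at 0.00.

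On the TMM scale, all 6 constitutive beta genes were lower in GSK484 than in CON beyond counting error. With the trend removed PSMB4 (0.02), PSMB6 (0.01) and PSMB7 (0.08) were above 0, and with TPM PSMB1 (0.02) and PSMB7 (0.04) were. PSMB5 (ENSG00000100804), the chymotrypsin-like site and the main target of bortezomib, was at 224 (NT), 245 (CON) and 214 CPM (GSK484) (log2 fold against CON -0.19, interval -0.22 to -0.16). PSMB6, the caspase-like site, was at 180, 196 and 176 CPM in the same order (-0.15), and PSMB7, the trypsin-like site, at 231, 254 and 242 (-0.07). By CPM, all 3 catalytic genes were highest in CON, and by TPM PSMB5 alone was. The reads of PSMB5 were divided with other genes or loci. PSMB2 gave -0.15. Of the 7 alpha genes measured, PSMA5 (-0.14), PSMA6 (-0.12), PSMA7 (-0.11) and PSMA2 were lower on the TMM scale. PSMA4 alone was higher (0.04, interval 0.02 to 0.07), and PSMA1 and PSMA3 were within counting error. With TPM, PSMA5 (-0.03), PSMA6 (-0.01), PSMA7 (-0.02) and PSMA2 (-0.005) lay close to no difference, and PSMA1 (0.13), PSMA3 (0.08) and PSMA4 (0.15) were above 0. With the trend removed PSMA5 (-0.25), PSMA6 (-0.21) and PSMA2 (-0.10) were below 0, and PSMA7 (0.02) was above it. PSMA2, PSMA3 and PSMA4, and PSMD1, PSMD6 and PSMD9 of the 19S genes, lie outside the rule for named genes and were chosen after their values were seen.

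The 19S genes were spread to both sides. Beside PSMC6, PSMD12, a lid subunit, was higher in GSK484 than in CON, at 160 (NT), 139 (CON) and 157 CPM (GSK484) (0.18, interval 0.14 to 0.21). With the trend removed PSMD12 was at 0.00. PSMD1, the large scaffold of the base, was at 185, 175 and 190 CPM in the same order (0.12), and PSMD14, the lid enzyme that cuts ubiquitin off the substrate, at 151, 144 and 148 (0.04). PSMD14 turned to -0.31 with the trend removed, where GC content came from its longest transcript (31.96%), and was 0.07 where it came from the mean of its protein-coding transcripts (47.9%). PSMD8 (-0.13), PSMD10 (-0.17), PSMC4 (-0.07) and PSMC1 (-0.05) were lower, of which PSMC4 (0.02) and PSMC1 (0.04) were above 0 with the trend removed. Thus CON held the lowest CPM of PSMC6, PSMD12, PSMD1 and PSMD14 among the 3 libraries, and the highest of all 6 constitutive beta genes. By TPM, PSMB4 and PSMB5 were still highest in CON, but PSMB2 and PSMB6 were highest in NT and PSMB1 and PSMB7 in GSK484. PSMD1 was then lowest in NT, while PSMC6, PSMD12 and PSMD14 stayed lowest in CON. With the trend removed, CON against NT gave 0.13 for PSMD12 and 0.51 for PSMD14, and -0.18 for PSMC6 and -0.02 for PSMD1. It gave -0.07, -0.14 and -0.08 for PSMB5, PSMB6 and PSMB7, 0.19 and 0.22 for PSMB1 and PSMB2, and 0.00 for PSMB4.

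The 13 constitutive 20S genes had a median log2 fold of -0.115 for GSK484 against CON (range -0.19 to 0.04), with 10 lower and 1 higher beyond counting error. The 17 genes of the 19S particle had -0.001 (-0.13 to 0.28), with 5 lower and 5 higher. The difference of the medians, -0.114, did not depend on the choice between TMM, total counts and median-of-ratios scaling, which shift all genes alike. It was -0.127 with TPM, -0.118 after the trend was removed and -0.114 among the genes with whole counts, 9 on each side. With the trend removed on GC content of the protein-coding transcripts it was -0.100. The split was chosen after the values were seen, and members of a complex are not replicates, so it has no test. For CON against NT the same medians were 0.10 and 0.04, and for GSK484 against NT 0.002 and 0.016. These comparisons share libraries: CON is one side of both comparisons with the wider gaps (-0.114 and 0.057), and for GSK484 against NT the gap was -0.014, which became 0.015 with the trend removed and 0.004 among genes with whole counts.

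**Figure D3:**
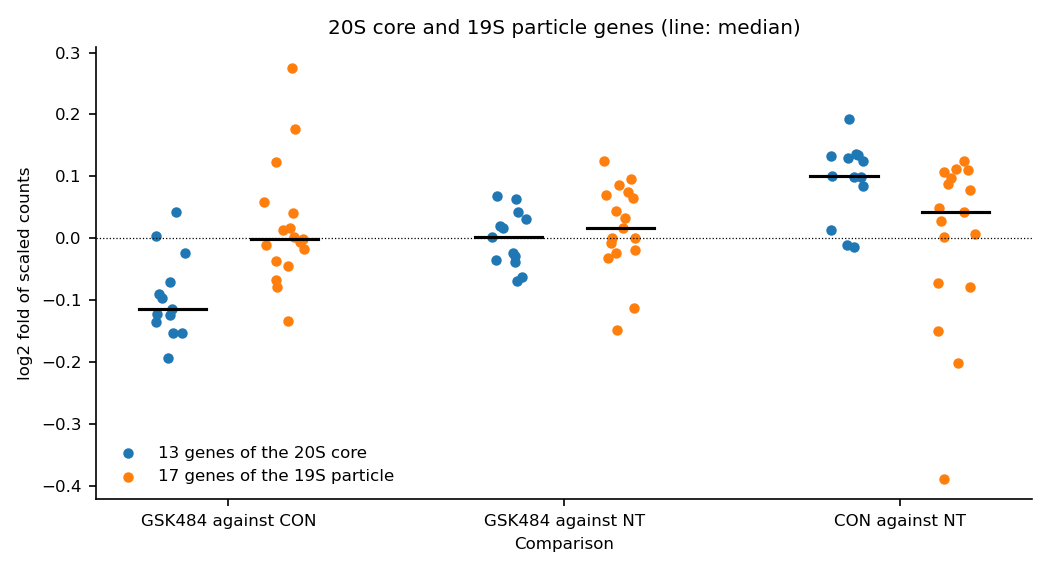
Log2 fold of scaled counts (vertical) of the 13 constitutive 20S genes (blue) and the 17 genes of the 19S particle (orange) in the 3 comparisons, 1 point per gene, with the median as a line. The medians are -0.115 and -0.001 for GSK484 against CON, 0.002 and 0.016 for GSK484 against NT, and 0.10 and 0.04 for CON against NT.

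GSK484 against NT sets the inhibitor library against untreated cells, whose time in culture is not given. No member was called at 1.2-fold, against 7.07% of all 13209 genes higher and 10.5% lower, and none reached a fold of 2 (0.265% of all genes higher, 0.28% lower). Beyond counting error, 22 of 45 were higher and 11 lower, where all genes gave 27.3% higher and 29.5% lower. The members' median was 0.020 (range -0.20 to 0.26), that of all genes -0.003, and the members' median was 0.021 with TPM and 0.023 with the trend removed. Of the calls over all genes, 40.2% were higher, or 51.6% with the trend removed. The largest positive value belonged to PSMB9 (ENSG00000240065), at 12.6 (NT), 15.4 (CON) and 15.1 CPM (GSK484) (0.26, interval 0.14 to 0.39), and PSMG3 followed with 0.22. Both treated libraries were above NT for PSMB9.

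CON against NT sets the control compound against untreated cells, whose time is not given. Any difference in time cannot be told apart from the compound. Here most members were higher in CON: 31 of 45 were higher beyond counting error and 6 lower, against 35.5% and 29.4% of all 13221 genes. At 1.2-fold, PSMB9, PSMG3 and PSMG4 were called higher and PSMC6 lower (10.2% of all genes higher, 17.2% lower). No member reached a fold of 2 (0.333% of all genes higher, 1.35% lower). The members' median was 0.098, against 0.027 over all genes. It was -0.028 with TPM, where the median of all genes was -0.083 and 33 of 45 members lay above it, and -0.012 with the trend removed, where 19 of 45 did. Of the calls over all genes, 37.2% were higher, 26.8% with total counts, 19.5% with TPM and 49.0% with the trend removed. With TPM, PSMC2, PSMC6 and PSMD12 were called lower and no member higher. With the trend removed the calls were PSMA5, PSMA6, PSMD6 and PSMD14, all higher, so none of the genes called on the TMM scale was among them. With GC content of the protein-coding transcripts the calls were PSMA2 and PSMA5 instead, and PSMD14 went from 0.51 to -0.07 and PSMA6 from 0.28 to 0.05.

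PSMG3 (ENSG00000157778) was at 51.5 (NT), 65.3 (CON) and 59.9 CPM (GSK484), a log2 fold of 0.34 for CON against NT (interval 0.28 to 0.40). PSMG4 (ENSG00000180822) was at 25.2, 30.9 and 28.8 CPM in the same order (0.30, interval 0.21 to 0.38). Its reads were divided with other genes or loci. PSMB9 gave 0.29 (0.17 to 0.41). All 3 were lowest in NT, and with the trend removed their values for CON against NT were 0.07 (PSMG3), 0.03 (PSMG4) and 0.10 (PSMB9), none of them a call.

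The inducible catalytic subunits replace PSMB5, PSMB6 and PSMB7 when new cores are built, so each was also set against its constitutive partner. PSMB8 made up 24.97% of the counts of PSMB8 and PSMB5 in NT (exact interval 24.4 to 25.6), 25.01% in CON (24.5 to 25.5) and 26.8% in GSK484 (26.3 to 27.4). The intervals of NT and CON overlap and that of GSK484 lay above both. There PSMB5 was lower (log2 fold -0.19 against CON) while PSMB8 differed by -0.06. PSMB9 made up 6.56% of its pair with PSMB6 in NT (6.15 to 6.99), 7.29% in CON (6.93 to 7.67) and 7.91% in GSK484 (7.48 to 8.35). The interval of CON overlaps those of both other libraries, and the intervals of NT and GSK484 do not overlap. PSMB10 with PSMB7 gave 16.4% in NT (15.8 to 16.9), 17.4% in CON (16.9 to 17.8) and 16.5% in GSK484 (15.996 to 16.97). It was highest in CON, with an interval that overlaps that of GSK484 and lies just above that of NT. The reads of PSMB5, PSMB8 and PSMB10 were divided with other genes or loci, and these intervals do not cover that division. Per length, in TPM, the shares were 25.8%, 25.8% and 27.9% for PSMB8, 7.12%, 7.90% and 8.54% for PSMB9, and 22.1%, 23.6% and 22.2% for PSMB10 in the order NT, CON and GSK484. The constitutive subunit was thus the more abundant transcript in every pair and library, 2.59 to 2.88 times for PSMB5 over PSMB8 and 10.7 to 13.05 times for PSMB6 over PSMB9.

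**Figure D4:**
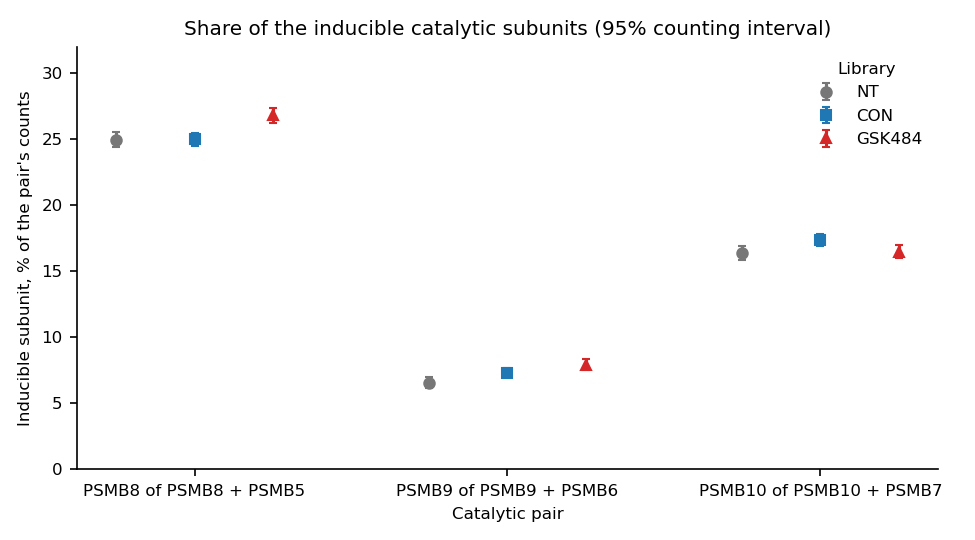
Inducible subunit as a percentage of the counts of its catalytic pair (vertical) for 3 pairs (horizontal) in the 3 libraries, with exact 95% counting intervals as bars. PSMB8 is at 26.8% in GSK484, 24.97% in NT and 25.01% in CON, and PSMB9 goes from 6.56% in NT to 7.91% in GSK484.

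The activators and the inhibitor differed by little. PSME1 and PSME2, which form the interferon-induced cap, were at 132 and 146 CPM in NT, 143 and 169 in CON and 138 and 154 in GSK484. For GSK484 against CON this gave -0.05 and -0.13. PSME3, the activator that forms a ring of its own, was at 213, 213 and 208 CPM (-0.04), and PSME4, the large activator of the cell nucleus, at 160, 146 and 152 (0.05). PSME4 was the only activator gene with its lowest CPM in CON, but by TPM PSME1 and PSME3 were lowest in CON as well. With TPM, GSK484 against CON gave 0.05 (PSME1), -0.07 (PSME2), 0.10 (PSME3) and 0.12 (PSME4). With the trend removed all of them changed sign, to 0.09, 0.03, 0.03 and -0.04 in the same order. PSMF1 was within counting error (-0.03, interval -0.06 to 0.01).

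Differences between libraries went along with the GC content of the transcripts, for the members as for all genes. Over the 45 members, Pearson's r between log2 fold and mean GC content of protein-coding transcripts was -0.30 for GSK484 against CON, 0.62 for GSK484 against NT and 0.67 for CON against NT. Over 8865 protein-coding genes of at least 10 CPM, which share the libraries, it was -0.32, 0.61 and 0.57. The third of the members with the lowest GC content (15 genes, up to 46.1%) had a median of -0.01 for CON against NT, and the third with the highest (15 genes, from 52.5%) 0.13. For GSK484 against NT the same sets had -0.04 and 0.08. For GSK484 against CON they had -0.08 and -0.07, so these medians did not follow the sign of r there. With the trend fitted to all genes on this GC content and length removed, r over the members turned to 0.53, -0.29 and -0.66. Most values above with the trend removed used GC content of the longest transcript instead. For that source r went from -0.36, 0.46 and 0.60 to 0.52, -0.49 and -0.73. The values with the trend removed thus carry a dependence on GC content of the opposite sign. These are descriptions across genes of the same libraries, and genes are not independent replicates.

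**Figure D5:**
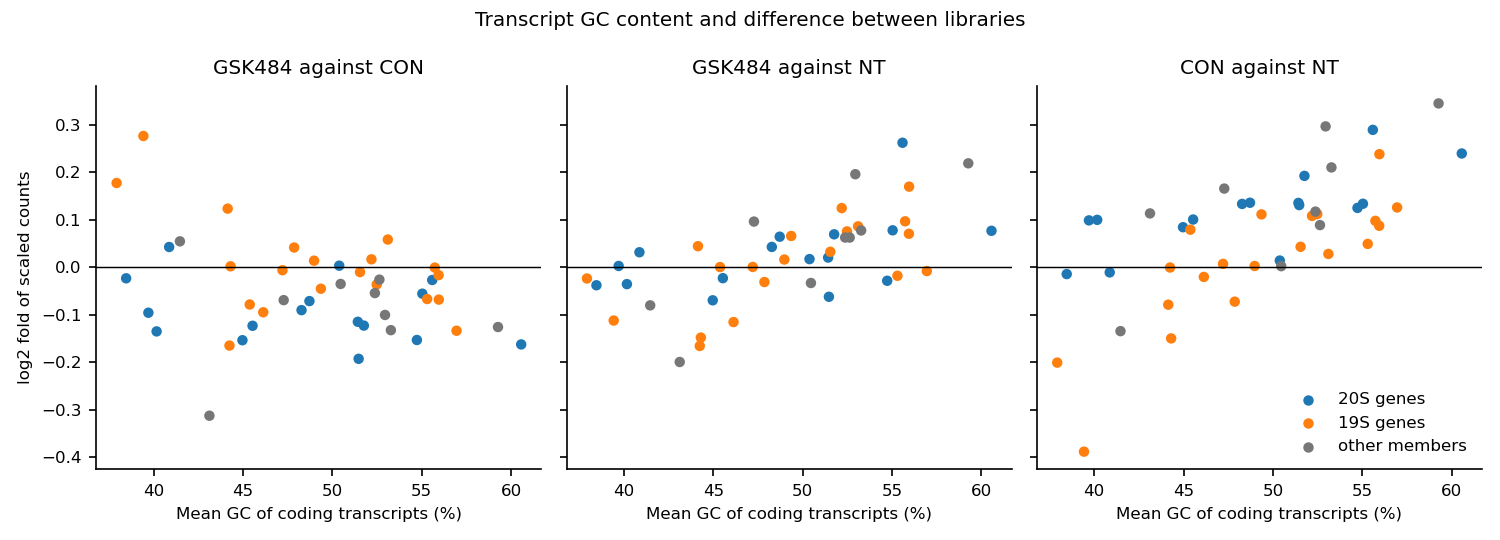
Log2 fold of scaled counts (vertical) against mean GC content of the protein-coding transcripts in percent (horizontal) for the 45 measured genes in the 3 comparisons, 1 point per gene; blue, genes of the 20S core with the inducible ones; orange, all PSMC and PSMD genes; grey, the other members. In the right panel the points climb with GC content (r = 0.67), and PSMC6 is the lowest point.

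Genes around the proteasome were read from lists of partners and pathway genes. For each list, the counts of GSK484 against CON stand beside 26.9% of all genes higher and 27.4% lower beyond counting error, and 11.2% called higher and 6.25% called lower. With 1 or 2 calls a list, nothing is read from these counts about a list as a whole. Of 12 partners not named PSM, 4 had higher and 4 had lower counts with GSK484 than with the control compound beyond counting error, and 1 was called, UCHL5, a deubiquitinase of the 19S particle, at 71.7 (NT), 49.2 (CON) and 66.9 CPM (GSK484) (0.44, interval 0.39 to 0.50). UCHL5 was lowest in CON, as PSMC6 was, and its value with the trend removed was 0.23. The reads of UCHL5 were divided with other loci. So were those of ADRM1, NFE2L2, ATXN3, RPS27A, IRF9 and CCT8, named next. POMP, the chaperone of core maturation, gave -0.02, the 19S subunit SEM1 -0.03 and the ubiquitin receptor ADRM1 -0.03. NFE2L1 itself was at 313 (NT), 300 (CON) and 311 CPM (GSK484) (0.05, interval 0.03 to 0.08). Of the 17 genes of its axis, 7 were higher and 5 lower, with 2 calls: NFE2L2 (76.6, 53.7 and 70.3 CPM, 0.39), the factor of the oxidative stress response, and FBXW7 (19.2, 14.6 and 18.6 CPM, 0.35), a ubiquitin ligase subunit. Their values with the trend removed were 0.38 and 0.31. SEL1L (0.25) was next, at 0.00 with the trend removed.

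The list of p97 and its cofactors (9 genes) had 4 higher and 4 lower, with 1 call, ATXN3 (7.58, 5.70 and 7.61 CPM, 0.42), a deubiquitinase. Of 6 genes for ubiquitin and its activation, 2 were higher and 4 lower. UBA6, the second ubiquitin-activating enzyme, was called (58.0, 32.3 and 45.9 CPM, 0.51, or 0.17 with the trend removed), and the ubiquitin fusion gene RPS27A gave -0.20. Among 7 shuttle receptors 0 were higher and 2 lower, with no call. Of the 8 inducers and neighbours of the inducible subunits, 2 were higher and 4 lower without a call, where IRF9 gave -0.24, IRF1 -0.12 and TAPBP 0.08. IRF9 was low, at 4.63 (NT), 4.69 (CON) and 3.97 CPM (GSK484), and its direction rests on the scale. With TPM it was at 0.35, and with the trend removed at -0.13. TAPBP, a chaperone of antigen loading, was however called higher in both GSK484 (0.42) and CON (0.34) against NT.

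Other complexes of many subunits gave a like picture of small values with single exceptions. The median for GSK484 against CON was -0.049 for the 9 genes of the COP9 signalosome, -0.010 for the 8 genes of the CCT chaperonin and -0.037 for the 14 genes of the V-ATPase, beside -0.005 over all genes. COPS2 (121, 72.5 and 105 CPM, 0.54) and CCT8 (446, 357 and 451 CPM, 0.34) were the 1 call of each of the first 2 complexes, and both were lowest in CON. The V-ATPase had no call, with ATP6V1C1 at 0.25 and ATP6V0E1 at -0.23. With the trend removed COPS2 was at 0.24 and CCT8 at 0.32.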

How the data were processed

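RNA of 3 libraries was analysed, 1 per group. The authors deposited 1 gene table per library with expected counts, which are estimated reads per gene and not normalized, and with TPM and FPKM values, which are scaled by effective length and library total, per the file headers. RSEM and hg19 are named in the submitters' processing notes. Versions, the aligner, the annotation and whether reads were counted by strand were not given in the sources used here. A stranded total RNA kit and paired reads of 125 bases were used, per the labels' protocols. The control compound is named GSK107 in the labels' treatment text and GSK106 in the deposited table.

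Members and gene lists were chosen with earlier results of these data known. Expected counts were divided by library size times the TMM factor of edgeR 4.0.16 in R 4.3.3 (1.01 for NT, 0.98 for CON and 1.01 for GSK484), and log2 folds used a prior count of 0.5. The interval is Clopper-Pearson's exact one for a binomial share, on counts rounded to whole numbers. It covers counting error only, as do the floors of 3 counts, since PCR copies cannot be told from molecules. Genes of at least 1 CPM in either library were compared, and a call needs a fold of at least 1.2 with an interval that excludes no difference. Genes with counts whole within 0.005 in all libraries are called whole. Symbols, gene types and GC content came from the gene name table and GENCODE release 29 by gene ID, and no coordinates were joined to the deposited tables. For the trend, log2 folds of 8875 protein-coding genes (at least 10 CPM) were regressed on GC content and length with natural cubic splines. The folds, intervals and calls were tested on simulated Poisson counts scaled by library totals, and the trend removal on a planted GC slope. TMM scaling, divided reads, pair shares and promoter counts were not part of these simulations.

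Named genes were PSMB5 to PSMB11, PSMA8, PSMD14, all PSME, PSMF and PSMG genes, NFE2L1, POMP, SEM1 and ADRM1. In each role group, the 3 members with the largest difference between GSK484 and CON beyond counting error, the highest and the lowest by TPM in NT, and called members were added, with up to 3 genes from each other list. Alternatives were total counts, median-of-ratios factors, TPM with a pseudocount of 0.1, other minimum values, other folds, a prior count of 2, whole counts only and trend removal. A comparison of protein sequences was not run, because no protein table was used here. Some genes of the lists are not reported here.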

Additional observations from a re-analysis of the deposited data

How the results depend on the processing

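Each group has 1 library, so the differences have no replicate check, and antisense partners or divided reads could move single values. No paired analysis was possible because each group has 1 library, and no library could be left out. Of 114 alternative values of the main results 74 stayed near the main value and 40 moved. The medians of GSK484 against CON and of CON against NT changed sign with TPM and with the trend removed by either source of GC content. For GSK484 against CON, the main counts of 1 member higher and 1 lower became 2 and 0 with TPM, 2 and 6 at a fold of 1.1, 0 and 0 at a fold of 1.5, and 0 and 0 among genes with whole counts. With the trend removed they were 0 higher and 1 lower for either source of GC content, the second of which (mean of protein-coding transcripts) was chosen after seeing the data. The median of -0.056 became -0.016 with total counts, 0.045 with TPM, 0.028 with the trend removed and 0.023 with the second source. For GSK484 against NT, the counts of 0 and 0 became 4 higher and 3 lower at a fold of 1.1, and 1 was lower with the trend removed. For CON against NT, the counts of 3 higher and 1 lower became 8 and 3 at a fold of 1.1, 0 and 0 at a fold of 1.5, and 0 and 3 with TPM. Total counts gave 1 higher. With the second source 2 were higher (PSMA2 and PSMA5), where the first gave 4. None was lower (0) among genes with whole counts or with the trend removed by either source. The median of 0.098 became 0.056 with total counts, -0.028 with TPM, -0.012 with the trend removed and -0.021 with the second source. Shares of the inducible subunits moved from percent of TPM to percent of counts, in the order NT, CON and GSK484, to 24.97, 25.01 and 26.8 for PSMB8, 6.56, 7.29 and 7.91 for PSMB9, and 16.4, 17.4 and 16.5 for PSMB10. The cause of these moves was not tested. At the depth of these libraries, a count of 0 allows up to 0.042 CPM.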
